A study of Homo sapiens with 2 samples.

Results

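Wnt pathway genes were examined for PRMT6 and PARP1 peaks at their promoters in MDA-MB-231, an established line of human triple-negative breast cancer cells that the study grew in DMEM with serum and left untreated. The data comprised 2 libraries, 1 prepared with an antibody against PRMT6, an enzyme that methylates arginines of histones and other proteins, and 1 with an antibody against PARP1, an enzyme that attaches ADP-ribose to proteins, and no control-antibody library was used here. The study linked Wnt signaling to promoters bound by a complex of PRMT6, PARP1 and the ubiquitin ligase CRL4B, and the comparison asked which Wnt pathway genes carried peaks and at which level of the pathway. The members were 59 named genes out of 19719 protein-coding genes with a placed 5′ end, chosen by gene name. A promoter peak was any listed peak with a base within 3 kb of the 5′ end of the gene's GRCh38 RefSeq record.

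Wnt ligands are secreted glycoproteins that need the acyltransferase PORCN and the carrier WLS to leave the cell, and that bind Frizzled receptors together with the co-receptors LRP5 and LRP6. Without ligand, a destruction complex built on AXIN1, APC and the kinases GSK3A and GSK3B marks β-catenin (CTNNB1), which the F-box protein BTRC then recognizes for degradation. With ligand, Dishevelled proteins (DVL1, DVL2 and DVL3) disable this complex, and β-catenin enters the nucleus to act with TCF/LEF factors. The members were therefore ordered into 20 genes at the level of the ligands, their secretion and their secreted inhibitors, 16 at the level of the receptors, 10 at the level of the destruction complex and 13 nuclear factors and targets.

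The PRMT6 list held 9080 peaks and the PARP1 list 11651. The lists give positions and a score without read counts, so the depth behind each peak is unknown. The score was taken as a p-value on the −log10 scale and served only to rank peaks within a list, with rank 1 the best. A percentile of 100 stands for the best peak of a list. The smallest width was 288 bp in the PRMT6 list, where 53.1% of all peaks had exactly this width, and 200 bp in the PARP1 list, where 30.1% did. With 1 library per antibody there was no replicate check and no test between the libraries. Exact binomial (Clopper-Pearson) 95% intervals are given for shares of genes, and they cover counting error only. Peak lists carry no expression values, so the identity of the cell line was not checked here.

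The promoter sequences of 5 members with peaks of both antibodies are shown first, because the results turn on these promoters. Each is the 250 bases before the RefSeq start site in GRCh38.p14, read 5′ to 3′ along the gene's strand. Capitals mark the letters GGGCGGGG, a GC box of the kind that SP1 and KLF factors recognize, and CCGGAAG, a core that ETS factors recognize, on either strand. GSK3B lay at chr3:120094448-120094697 on the minus strand, GSK3A at chr19:42242603-42242852 on the minus strand, CTNNBIP1 at chr1:9910270-9910519 on the minus strand, AXIN1 at chr16:352724-352973 on the minus strand and FZD5 at chr2:207769907-207770156 on the minus strand.
GSK3B: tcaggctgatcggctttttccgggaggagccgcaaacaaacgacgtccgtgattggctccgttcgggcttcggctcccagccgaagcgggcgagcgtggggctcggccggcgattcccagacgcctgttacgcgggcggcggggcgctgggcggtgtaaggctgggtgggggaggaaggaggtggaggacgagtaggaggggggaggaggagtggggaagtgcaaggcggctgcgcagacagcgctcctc
GSK3A: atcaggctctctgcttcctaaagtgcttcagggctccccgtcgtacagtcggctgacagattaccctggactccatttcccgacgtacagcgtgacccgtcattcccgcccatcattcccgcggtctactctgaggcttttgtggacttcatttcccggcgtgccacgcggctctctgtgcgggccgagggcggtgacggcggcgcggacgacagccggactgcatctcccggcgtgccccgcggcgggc
CTNNBIP1: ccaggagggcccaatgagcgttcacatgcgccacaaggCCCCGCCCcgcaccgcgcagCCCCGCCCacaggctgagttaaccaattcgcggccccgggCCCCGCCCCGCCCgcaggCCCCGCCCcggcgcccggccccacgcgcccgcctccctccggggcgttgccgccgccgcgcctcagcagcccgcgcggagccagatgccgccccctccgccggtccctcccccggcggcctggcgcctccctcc
AXIN1: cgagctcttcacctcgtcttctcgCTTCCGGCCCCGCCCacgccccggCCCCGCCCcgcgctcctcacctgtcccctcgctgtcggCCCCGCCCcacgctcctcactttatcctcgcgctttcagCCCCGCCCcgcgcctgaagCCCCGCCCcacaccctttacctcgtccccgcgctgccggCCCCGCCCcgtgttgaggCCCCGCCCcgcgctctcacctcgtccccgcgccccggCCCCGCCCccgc
FZD5: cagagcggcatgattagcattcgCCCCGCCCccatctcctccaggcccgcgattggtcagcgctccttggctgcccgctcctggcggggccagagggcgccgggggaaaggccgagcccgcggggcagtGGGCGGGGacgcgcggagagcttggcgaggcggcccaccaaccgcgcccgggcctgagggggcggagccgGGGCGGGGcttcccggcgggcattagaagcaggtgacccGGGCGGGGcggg

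The peak of PRMT6 covered all 250 bases of the stretch at GSK3B, GSK3A and CTNNBIP1, 158 at AXIN1 and 162 at FZD5. The PARP1 peak covered 250 bases at GSK3B, 198 at GSK3A, 199 at CTNNBIP1 and 128 at AXIN1. At FZD5 it covered 0, because that peak began downstream of the start. The AXIN1 stretch held the GC box 8 times and the ETS core once, CTNNBIP1 held the GC box 5 times with overlap between matches, and FZD5 held it 4 times. Neither word occurred in the stretches of GSK3B and GSK3A. BTRC, which also carried both peaks, had no entry in the sequence table.

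Of the 59 members, 12 had a PRMT6 promoter peak (20.3%, 95% interval 11.0% to 32.8%), where 18.3% of all protein-coding genes did. A PARP1 promoter peak was found at 13 members (22.0%, 12.3% to 34.7%), against 22.5% of all protein-coding genes. Promoter peaks of both lists occurred at 7 members (11.9%, 4.91% to 22.9%), against a background of 13.4%. The background lay inside the members' interval in all 3 cases, so the pathway as a whole was near the level of the genome. The genes with both peaks were WNT1, FZD5, AXIN1, GSK3A, GSK3B, BTRC and CTNNBIP1. DKK3, FZD6, ZNRF3, APC and BCL9L had a PRMT6 promoter peak alone (5 of 59, 8.47%, against 4.88% of all genes), and DKK1, FZD2, FZD8, LRP6, TLE1 and TLE3 had a PARP1 promoter peak alone (6 of 59, 10.2%, against 9.09%). The other 41 members had none in either list.

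**Figure D1:**
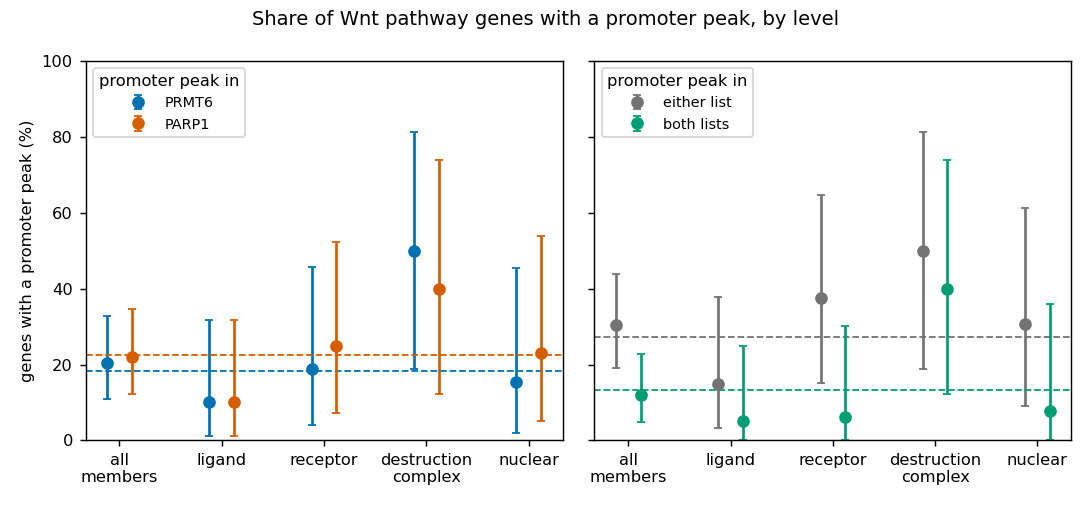
Share of Wnt pathway genes with a promoter peak (vertical axis, percent) for all 59 members and for each level of the pathway, by antibody on the left and in either or both lists on the right. Points are shares, bars are exact 95% binomial intervals and dashed lines are the shares over all 19719 protein-coding genes in the same color. The destruction complex level has the highest shares, 5 of 10 genes for PRMT6 and 4 of 10 for both lists. Over all genes these shares are 18.3% and 13.4%. The bars of this level overlap those of the other levels.

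The levels of the pathway differed in their counts. At the level of the destruction complex, 5 of 10 genes had a promoter peak in either list (interval 18.7% to 81.3%), against 27.3% of all protein-coding genes, and 4 of 10 had both (interval 12.2% to 73.8%, against 13.4%). At the receptor level 6 of 16 genes had a peak in either list (37.5%, 15.2% to 64.6%), but FZD5 was the single gene with both. The nuclear level gave 4 of 13 (30.8%, 9.09% to 61.4%), with both peaks at CTNNBIP1, and the ligand level gave 3 of 20 (15.0%, 3.21% to 37.9%), with both peaks at WNT1. The intervals of all 4 levels overlapped each other, and those for a peak in either list contained the background of 27.3%.

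Within the destruction complex level, the promoter peaks were at AXIN1, APC, GSK3A, GSK3B and BTRC. Of AXIN1, AXIN2, APC, GSK3A, GSK3B and BTRC, 5 had a promoter peak, against 27.3% of all genes, and 4 had both (66.7%, 22.3% to 95.7%), against 13.4%. These 6 genes were set apart by their role, with earlier results of these data known. Of the members' several role groups, this had the highest share with both, so its interval is descriptive only. For the whole level, the interval for both (12.2% to 73.8%) contained the 13.4%. DVL1, DVL2, DVL3 and the Dishevelled inhibitor NKD1 had none.

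GSK3B and GSK3A, the kinases that phosphorylate β-catenin, carried the widest promoter peaks among the members. At GSK3B the PRMT6 peak (chromosome 3, 120094324 to 120095227) was 903 bp wide and ranked 212 at a score of 17.61. PARP1 had a peak there (120094367 to 120095148) that was 781 bp wide, lay wholly inside the PRMT6 peak and ranked 830 with a score of 14.02. Both spanned the 5′ end and also overlapped the divergent noncoding gene GSK3B-DT. At GSK3A the PRMT6 peak (chromosome 19, 42242572 to 42243482) was 910 bp wide and ranked 903, while that of PARP1 (42242655 to 42243363) was 708 bp wide and ranked 836. A second, weaker PARP1 peak at GSK3A (42244739 to 42244946, rank 8454) lay 2137 bp upstream of the 5′ end without overlap in the PRMT6 list.

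BTRC and AXIN1 had better ranks for PRMT6 than for PARP1. At BTRC the PRMT6 peak (chromosome 10, 101353795 to 101354228) ranked 364, that of PARP1 (101353824 to 101354073) ranked 4563, and both spanned the 5′ end. At AXIN1, the scaffold of the complex, the PRMT6 peak (chromosome 16, 352816 to 353258) ranked 1333 and stopped 93 bp short of the 5′ end on its upstream side. That of PARP1 (352846 to 353161) ranked 5671 and stopped 123 bp short. Ranks come from lists of different length, and in percentiles BTRC stood at 96.0 for PRMT6 and 60.8 for PARP1, and AXIN1 at 85.3 and 51.3.

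APC, the other scaffold of the complex, carried a PRMT6 peak alone (chromosome 5, 112707535 to 112707823), 37 bp downstream of its 5′ end. It had the smallest width of the list, a score of 3.12 and rank 8745 of 9080, which made it the weakest promoter peak among the members in that list. AXIN2, a feedback target of the pathway as well as a scaffold, had no promoter peak, and its nearest peaks lay 328803 bp away for PRMT6 and 35536 bp away for PARP1.

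**Figure D2:**
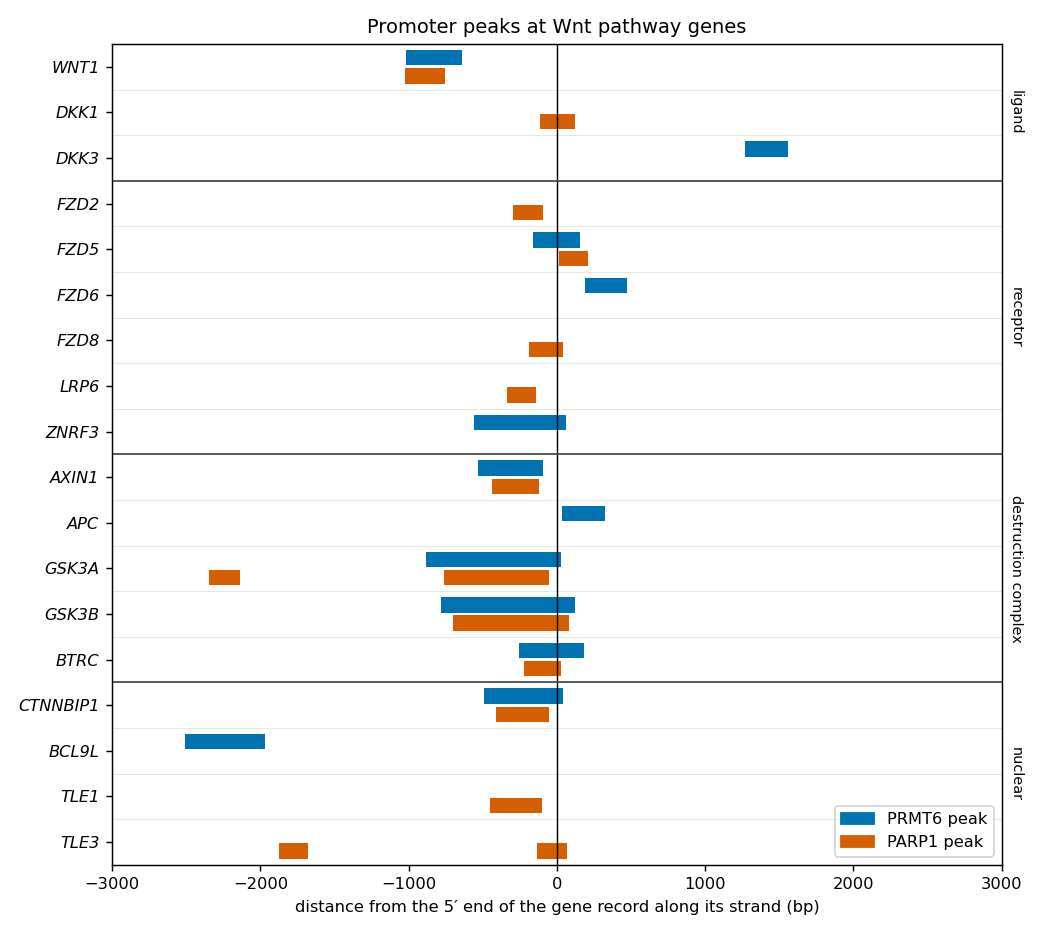
Promoter peaks at the 18 Wnt pathway genes that had any, drawn to scale along the distance from the 5′ end of the gene record (horizontal axis, bp, negative upstream), with PRMT6 peaks above PARP1 peaks in each row and genes grouped by level. Where both lists had a peak the bars lie over each other, and the widest pairs are those of GSK3A and GSK3B.

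Promoter peaks lie within 3 kb of a 5′ end by definition, and the counts of distances below were not computed over all genes. Of 12 PRMT6 promoter peaks at members, 6 spanned the 5′ end and 9 came within 200 bp of it. Of 15 PARP1 promoter peaks, 5 spanned it and 12 came within 200 bp. At all 7 members with both peaks, the PRMT6 peak overlapped the PARP1 peak, as did those of 12.9% of all protein-coding genes, where 13.4% had peaks of both lists. The shared stretch ran from 143 bp at FZD5 to 781 bp at GSK3B. The widest distances inside the window were those of BCL9L, whose peak ended 1969 bp upstream, and of the second GSK3A peak. The nearest peaks just outside it were those of PORCN at 3659 bp, LGR4 at 3820 bp and DVL1 at 4107 bp.

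At the ligand level, WNT1 was the only 1 of 14 Wnt ligand genes with a promoter peak in either list (7.14%, 0.181% to 33.9%, an interval that contains the 27.3% of all genes). For PRMT6 a peak on chromosome 12 from 48977306 to 48977682 (rank 2073) lay 640 bp before the 5′ end. For PARP1 a peak from 48977301 to 48977565 (rank 2297) lay 757 bp before it. They shared 259 bp and stood at nearly the same percentile, 77.2 and 80.3. WNT10B, the neighbor transcribed in the opposite direction, had these same peaks as its nearest, 5571 and 5566 bp upstream of its own 5′ end.

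The remaining ligand genes without a promoter peak were WNT2, WNT2B, WNT3, WNT3A, WNT4, WNT5A, WNT5B, WNT7A, WNT7B, WNT9A, WNT10A and WNT11. At WNT2B, however, a PARP1 peak lay 1603 bp from another RefSeq start site than the record's 5′ end. PORCN and WLS, which act in ligand secretion, also had none. The PRMT6 peak of PORCN (chromosome X, 48512651 to 48512939) lay 3659 bp downstream of the 5′ end at rank 8745, and 2867 bp from another RefSeq start site.

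Secreted inhibitors had weak peaks of a single antibody. DKK1, which blocks LRP5 and LRP6, had a PARP1 peak over its 5′ end (chromosome 10, 52314168 to 52314404) at rank 8382 with a score of 5.37. The nearest PRMT6 peak of DKK1 lay 4657 bp downstream at rank 2287. DKK3, a divergent family member, had a PRMT6 peak of the smallest width (chromosome 11, 12008186 to 12008474) 1271 bp downstream of its 5′ end at rank 6841. SFRP1 and WIF1, which bind Wnt ligands outside the cell, had no peak closer than 157447 bp and 387159 bp.

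At the receptor level, 4 of 8 Frizzled genes had a promoter peak in either list (interval 15.7% to 84.3%, which contains the 27.3% of all genes). FZD5 had both, with a PRMT6 peak over the 5′ end (chromosome 2, 207769751 to 207770068) at rank 1748 and a PARP1 peak (207769694 to 207769894) 12 bp downstream at rank 10442. The PARP1 peak of FZD5 had the smallest width of its list. The percentiles at this gene, 80.8 and 10.4, lay farther apart than at any other member with both peaks. FZD8 had a PARP1 peak over its 5′ end (chromosome 10, 35642253 to 35642481, rank 4799) that also overlapped the predicted coding gene LOC124902528.

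FZD2 had a PARP1 peak of the smallest width 93 bp upstream (chromosome 17, 44557191 to 44557391, rank 8340). FZD6 had a PRMT6 peak of the smallest width 188 bp downstream (chromosome 8, 103298682 to 103298970, rank 6841), which also overlapped the noncoding gene LOC105369147. FZD1, FZD3, FZD4 and FZD7 had no promoter peak. Nor did LRP5, RYK, ROR2, RNF43, LGR4 or LGR5.

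The co-receptor LRP6 had a PARP1 peak 139 bp upstream (chromosome 12, 12267183 to 12267383), again of the smallest width, at rank 10721 of 11651. ZNRF3, a ligase that removes Frizzled receptors from the cell surface, had a PRMT6 peak over its 5′ end (chromosome 22, 28883014 to 28883636). At 622 bp it was among the wider PRMT6 peaks of the members, yet it ranked 4181 with a score of 5.55. No PARP1 peak lay closer to the ZNRF3 5′ end than 110850 bp.

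At the nuclear level, CTNNBIP1 was the only gene with both peaks. Its product binds β-catenin and blocks its contact with TCF factors. The PRMT6 peak (chromosome 1, 9910231 to 9910763) spanned the 5′ end and ranked 498. For PARP1 the peak (9910321 to 9910681) stopped 52 bp upstream, lay inside that of PRMT6 and ranked 3016.

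The co-repressors TLE1 and TLE3, which TCF factors recruit in the absence of β-catenin, had PARP1 peaks alone. The TLE1 peak (chromosome 9, 81689651 to 81690000) ended 104 bp upstream, overlapped the divergent noncoding gene TLE1-DT and ranked 1330 with a score of 11.77, the best of the promoter peaks found in the PARP1 list alone. The nearest PRMT6 peak of TLE1 was 768766 bp away. TLE3 had 2 PARP1 peaks of the smallest width, over the 5′ end (chromosome 15, 70097848 to 70098048, rank 10689) and 1676 bp upstream (70099593 to 70099793, rank 8750). BCL9L, a co-activator of β-catenin, had a PRMT6 peak (chromosome 11, 118927895 to 118928438) at rank 575 with a score of 12.63, the best of those found in the PRMT6 list alone.

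β-catenin itself, CTNNB1, had no promoter peak, and its nearest peaks lay 75460 bp (PRMT6) and 68513 bp (PARP1) downstream of the 5′ end. None of the 4 TCF/LEF genes (TCF7, TCF7L1, TCF7L2 and LEF1) had a promoter peak in either list, against 27.3% of all genes. The interval allows a share of up to 60.2% and so contains that background. TCF7 had peaks 1441 bp (PRMT6) and 1225 bp (PARP1) from another RefSeq start site, outside the window of its record's 5′ end. BCL9, PYGO2, TNIK and the target gene MYC had none either. A PARP1 peak (chromosome 8, 127743026 to 127743287, rank 2991) lay 7592 bp downstream of the MYC 5′ end, and the nearest PRMT6 peak lay 118632 bp downstream.

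**Figure D3:**
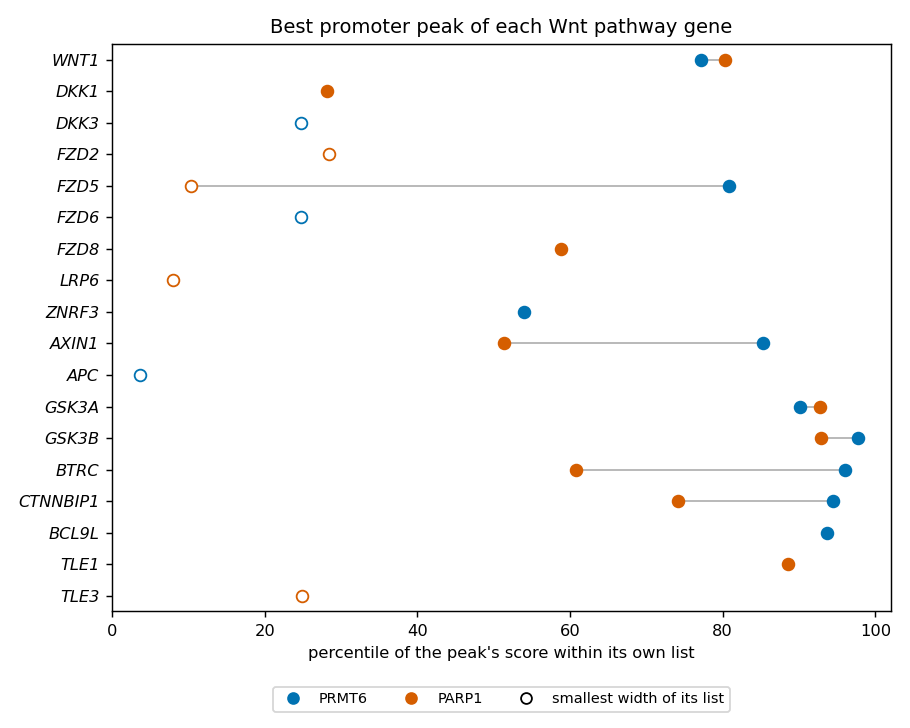
Percentile of the best promoter peak of each gene within its own list (horizontal axis, 100 is the best score), for the 18 Wnt pathway genes with a promoter peak. Lines join the peaks of a gene in both lists and open circles have the smallest width of their list. The PRMT6 peaks of the 7 genes with both lie between 77.2 and 97.7, while open circles make up 3 of 5 genes with PRMT6 alone and 3 of 6 with PARP1 alone.

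Genes with both peaks had the better-scoring peaks. For PRMT6, the best promoter peak of the 7 members with both had a median percentile of 90.1 (77.2 to 97.7), and that of the 5 members with PRMT6 alone a median of 24.7 (3.7 to 93.7). For PARP1 the medians were 74.1 (10.4 to 92.9) for the 7 members with both and 28.2 (8.0 to 88.6) for the 6 members with PARP1 alone. Over all protein-coding genes the same medians were 78.8 and 49.4 for PRMT6, and 74.7 and 42.5 for PARP1, so the order is that of the lists as a whole. Peaks of the smallest width made up 3 of the 5 PRMT6-alone members and 0 of the 7 with both, and over all genes 54.7% and 17.7%. In the PARP1 list they made up 3 of 6 and 1 of 7, and over all genes 31.5% and 8.8%. BCL9L and TLE1 departed from this order, with single-list peaks at percentiles 93.7 and 88.6.

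Peaks also fell elsewhere inside the gene records. Beyond the promoter window, 24 members had a peak of either list within their record, with 26 PRMT6 peaks in 18 genes and 23 PARP1 peaks in 17 genes. Of these, 7 PRMT6 and 7 PARP1 peaks overlapped each other, in TCF7L2, LRP5, TCF7, DVL1, AXIN1, BCL9L and WNT7B. The smallest width was found in 14 of the 26 PRMT6 and 8 of the 23 PARP1 peaks. Over all protein-coding genes, the share with a record peak beyond the window was not computed, nor was the share of such peaks that overlap. Any peak in the record, promoter included, was found at 50.8% of members and 36.3% of all genes, with record lengths compared below.

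Among the 59 members, the best peaks of both lists lay in TCF7L2, which encodes the TCF factor best known for its role in the gut and in diabetes risk. The PRMT6 peak (chromosome 10, 113073662 to 113074191) ranked 121 at a score of 20.56. That of PARP1 (113073722 to 113074157) ranked 79 at a score of 27.38 and lay wholly within it, 123475 bp downstream of the 5′ end. The nearest other RefSeq start site of TCF7L2 in the sequence table was 52476 bp from the PARP1 peak. TCF7L2 also held 2 PRMT6 peaks and 1 PARP1 peak without overlap, at ranks from 5621 to 9908. A shared pair in LRP5 (68380370 to 68380905 and 68380495 to 68380865 on chromosome 11), about 82 kb inside the gene, ranked 1642 and 1337.

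TCF7 and DVL1 had shared peaks that the promoter window missed. In TCF7 those of PRMT6 (chromosome 5, 134125059 to 134125443, rank 2272) and PARP1 (134124843 to 134125412, rank 9150) lay 16841 and 16625 bp downstream of the record's 5′ end, but 1441 and 1225 bp from another RefSeq start site at 134123618. In DVL1 those of PRMT6 (chromosome 1, 1344785 to 1345311, rank 1469) and PARP1 (1344843 to 1345145, rank 3383) lay 4107 and 4273 bp downstream. For DVL2 and DVL3 the nearest peaks lay at other genes. Those upstream of DVL2, at 4939 bp (PRMT6, rank 612) and 5026 bp (PARP1, rank 1266), were within 3 kb of the 5′ ends of PHF23 and GABARAP. Those downstream of DVL3, at 21009 bp (rank 963) and 21062 bp (rank 548), were at the promoter of AP2M1.

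BCL9L, AXIN1 and WNT7B held the other shared pairs. In BCL9L a PRMT6 peak from 118919802 to 118920090 on chromosome 11 ranked 3522 and a PARP1 peak from 118919786 to 118920170 ranked 3557, 5836 and 5756 bp downstream of the 5′ end. In AXIN1 a weaker pair than at its promoter (327386 to 327898 and 327312 to 327512) ranked 6633 and 6769, about 25 kb downstream. In WNT7B the PRMT6 peak (chromosome 22, 45925864 to 45926496) ranked 1209 and the overlapping PARP1 peak (45925820 to 45926088) ranked 9150, so the antibodies stood far apart at this ligand gene, at percentiles 86.7 and 21.5.

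Peaks without a partner in the other list made up the rest. The best was a PARP1 peak in ZNRF3 (chromosome 22, 29031402 to 29031764, rank 1056), 147830 bp downstream of the 5′ end that carried the PRMT6 peak and over the noncoding gene ZNRF3-AS1. DKK3 held PRMT6 peaks at ranks 2907 and 3935 and PARP1 peaks at ranks 8457 and 10721, none of which overlapped. BCL9, the paralog of BCL9L, held PRMT6 peaks at ranks 3218 and 8412. The receptor genes LGR5, RNF43 and ROR2 held PRMT6 peaks of the smallest width alone, the best at rank 4311 in LGR5, which encodes an R-spondin receptor known as a stem cell marker. The LGR5 peak also overlapped the noncoding gene LOC105369833. The RNF43 peak lay 64840 bp downstream, in the promoter window of SUPT4H1 and over the noncoding gene TSPOAP1-AS1. In LGR4, which like LGR5 encodes an R-spondin receptor, a PRMT6 peak ranked 4835 and PARP1 peaks ranked 4677 and 7010. Among the ligand genes, WNT7A held a PRMT6 peak at rank 6841, WNT3 a PARP1 peak at rank 6014 that also overlapped the record of LRRC37A2, and WNT2B a PARP1 peak at rank 11208. TNIK, a kinase of the TCF7L2 complex, held PRMT6 peaks at ranks 6841 and 8412 and a PARP1 peak at rank 3853. PYGO2, which binds BCL9 proteins, had no peak in its record, and the nearest was a PARP1 peak at rank 4524, 9054 bp upstream.

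**Figure D4:**
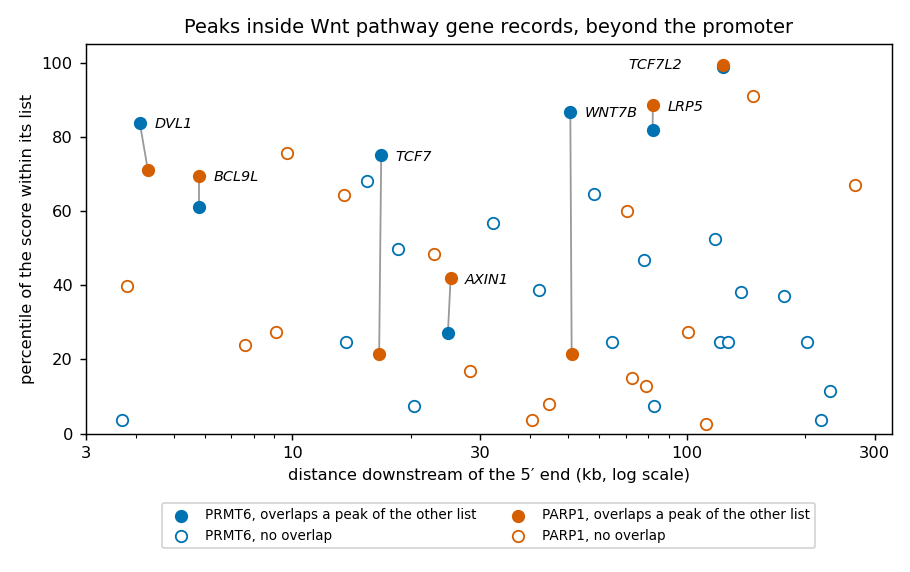
Peaks inside the records of Wnt pathway genes beyond the promoter window, by distance downstream of the 5′ end (horizontal axis, kb, log scale) and percentile of the score within the list (vertical axis). Filled points overlap a peak of the other list and are joined by a line and named by gene, and the pair in TCF7L2 is the highest, at 98.7 for PRMT6 and 99.3 for PARP1.

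Counting every peak that overlapped the record, 30 of 59 members (50.8%, 37.5% to 64.1%) had a peak of either list there, against 36.3% of all protein-coding genes. A PRMT6 peak was there in 24 (40.7%, against 24.7%) and a PARP1 peak in 22 (37.3%, against 27.2%). WNT1, FZD2 and LRP6 are not among these 30, because their promoter peaks lie upstream of the record. The members' records were longer, with a median of 47.6 kb against 24.7 kb. By record length, 6 of 17 members under 20 kb had such a peak where 22.0% of all genes did, 7 of 17 from 20 to 60 kb where 39.8% did, and 17 of 25 over 60 kb where 56.1% did.

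**Figure D5:**
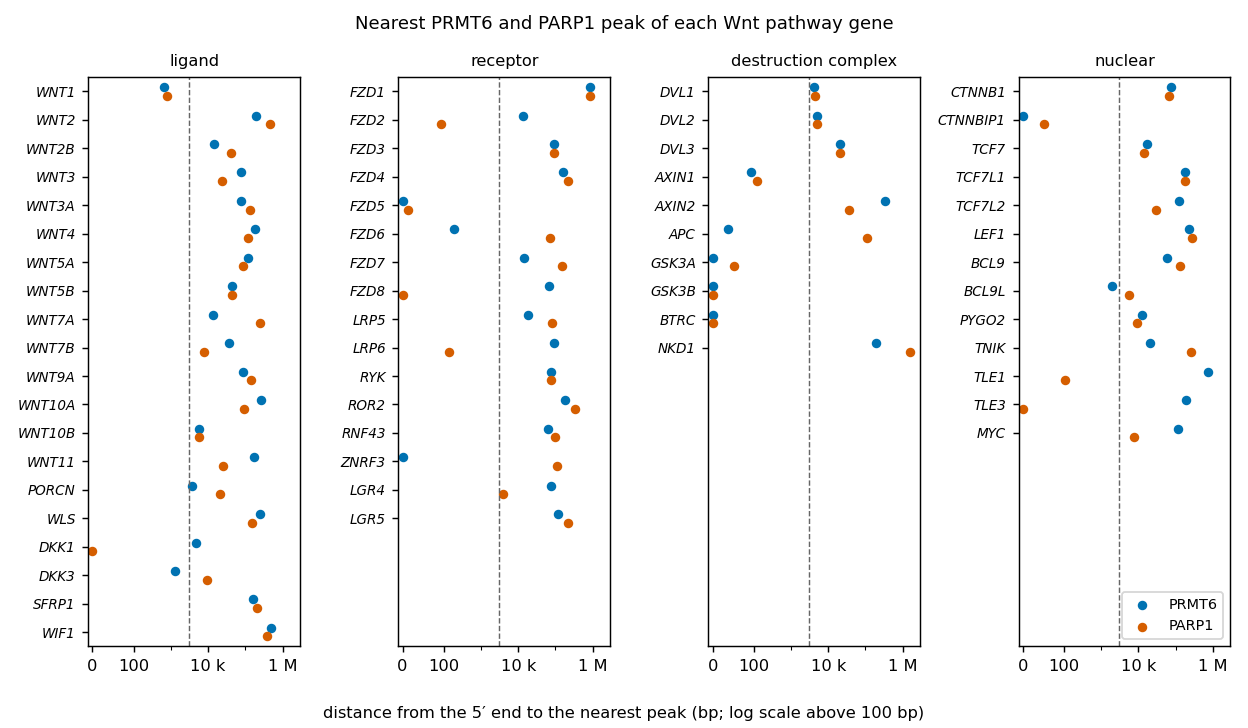
Distance from the 5′ end to the nearest PRMT6 and PARP1 peak for all 59 Wnt pathway genes (horizontal axis, bp, log scale above 100 bp and linear below), in a panel for each level. The dashed line marks the 3 kb window, and most ligand, receptor and nuclear genes lie to the right of it for both antibodies. Of all protein-coding genes, 27.3% have a peak of either list within it.

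The distance from members to the nearest peak was near that over all protein-coding genes. PRMT6 peaks lay at a median of 64840 bp from the 5′ end and PARP1 peaks at 40621 bp, against 55171 and 42261 bp over all protein-coding genes. More than 100 kb separated the 5′ end from the nearest PRMT6 peak at 20 members and from the nearest PARP1 peak at 21, out of 59, where 36.4% and 32.0% of all genes were that far. Neither list had a peak in the promoter or record of 26 members. Counting the record and 3 kb upstream of it, 55.9% of members had a peak of either list, against 41.6% of all genes. LEF1, at once a TCF/LEF factor and a target of the pathway, was 234601 bp from a PRMT6 peak and 272366 bp from a PARP1 peak. NKD1, a feedback inhibitor, was 193296 bp from a PRMT6 peak and 1584848 bp from a PARP1 peak.

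The base composition of promoters overlapped between members with peaks and members without. The RefSeq table held promoter sequences, 250 bases before to 50 after the start, for 42 members and 15843 protein-coding genes. At WNT5A, LRP5, TCF7, WNT10A and LEF1, all without a promoter peak, that start lay 2631 to 17957 bp from the record's 5′ end. The median ratio of observed to expected CpG was 0.94 (0.77 to 1.13) at 6 members with both peaks, 0.92 (0.59 to 1.02) at 5 with a single-list peak and 0.87 (0.16 to 1.14) at 31 with none. Over all genes it was 0.76, with 0.85 at genes with both peaks and 0.69 at genes with none. The GC box GGGCGGGG occurred in 4 of the 6 promoters with both peaks, against 41.1% over all genes with both peaks. It occurred in 16 of the 31 with none (51.6%), against 27.8% over all genes with none and 31.3% of all promoters.

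The ETS core CCGGAAG occurred in 3 of the 42 member promoters (7.14%), against 14.2% of all promoters. The TCF/LEF words CTTTGAA and CTTTGAT were found in 1 and 0 of the 42, against 3.63% and 1.96%, and the match was in DKK1. The NRF1 word GCGCATGC occurred in 2 (APC and DVL1), against 4.28%, and the YY1 word AAGATGGC in 1 (APC), against 3.86%. Both strands were searched and matches of different words may overlap. A match is a description of the letters, not evidence of binding.

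A second list of 71 other Wnt pathway genes gave higher shares than the members, within overlapping intervals. Of these, 20 had a PRMT6 promoter peak (28.2%, 18.1% to 40.1%, against 18.3% of all genes). A PARP1 promoter peak was found at 18 (25.4%, 15.8% to 37.1%, against 22.5%) and both at 15 (21.1%, 12.3% to 32.4%, against 13.4%). Each interval contained the share of all genes. Those with both peaks included PPP2R1A and PPP2R5A, subunits of the phosphatase PP2A, CSNK1A1, the casein kinase that primes β-catenin for GSK3, its relative CSNK1G3, FBXW11, a paralog of BTRC, AMER1, which binds APC, and USP34, which acts on axin. Other genes with such roles had no promoter peak in either list, among them the casein kinases CSNK1D, CSNK1E and CSNK1G1, the tankyrases TNKS and TNKS2, which mark axin for removal, and the GSK3 inhibitor FRAT1. CSNK1G2 and FRAT2 had a PRMT6 promoter peak alone. The peaks of CSNK1A1 were also in the promoter window of ARHGEF37, and those of AMER1 in that of the coding record LOC112268307. PPP2R1A ranked 190 for PRMT6 and 133 for PARP1, and DACT3, an inhibitor of Dishevelled, ranked 263 and 859.

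The other genes of that list with both peaks were JUN and FOSL1, which encode AP-1 subunits and are reported targets of the pathway, the repressor HBP1, the acetyltransferase EP300, the formin DAAM1 and cadherin CELSR3 of the polarity branch, and the inhibitor DKK4, whose peaks were also in the promoter window of VDAC3. JUN ranked 529 for PRMT6 and 31 for PARP1, the best PARP1 rank among the promoter peaks of all these genes. HBP1 ranked 298 and 267. CCND1, a cell cycle target, had a PARP1 promoter peak alone, 1897 bp upstream at rank 9150.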

How the data were processed

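Per the study's methods, PRMT6 and PARP1 were profiled by CUT&Tag, in which a transposase held at the antibody inserts adaptors into the DNA around it, with 1 library per antibody. The labels also describe ligation of adaptors to immunoprecipitated DNA, so the library chemistry is uncertain. The submitters' processing notes name CASAVA 1.4, Bowtie 0.12.8, MACS, MACS2 and hg19. The authors called peaks in each library separately and deposited, for each peak, a position and a score, taken here as the −log10 of the caller's p-value. Thresholds, duplicate removal and a control library are not given in the sources used here. The positions are in GRCh38: 55 PRMT6 and 61 PARP1 peaks end beyond the GRCh37 chromosome ends. Positions are printed as listed.

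Gene records came from RefSeq GRCh38.p14. Their strand came from the RefSeq promoter table (15843 genes) or the GENCODE gene of the same name (3876), and 337 coding records without a strand were left out. Of 15289 strands given by both sources, 63 differed, 0 of them at members. A member's promoter was assigned by any peak base within 3 kb of the 5′ end, and overlap meant at least 1 shared bp. Exons and introns were not analysed here, since no GRCh38 annotation of them was used. Python 3.11.15, numpy 2.4.6, pandas 2.3.3, scipy 1.17.1 and matplotlib 3.10.9 were used, and the assignment was tested on simulated data. The members, levels and lists were chosen with earlier results of these data known. Named were members with a promoter peak, peaks within 10 kb or in the record, and other pathway genes with both peaks. Sequences were shown for every member with both peaks and an entry in the promoter table, except WNT1, whose peaks lie farther upstream than the sequence. CCND1, CSNK1D, CSNK1E, CSNK1G1, CSNK1G2, TNKS, TNKS2, FRAT1, FRAT2, TLE2, TLE4, TLE5, CTNNB1, LEF1, AXIN2, NKD1, DVL3, SFRP1 and WIF1 were singled out after their values were seen. Alternatives covered the window, the score, the list length, the peak width, the overlap rule and the start sites.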

Additional observations from a re-analysis of the deposited data

How the results depend on the processing

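Of 60 alternatives computed, 49 left a count within 1.5 times its value and 11 moved it. Counting peaks anywhere in the gene record or 3 kb upstream moved most, to 25 members with a PRMT6 peak, 26 with a PARP1 peak and 18 with both, and to 8 ligand-level, 11 receptor-level and 8 nuclear-level genes with a peak in either list. This setting adds sequence, and all genes rose too, to 28.7% with PRMT6, 33.3% with PARP1, 20.5% with both and 41.6% with either. In the higher-scoring 50% of each list, 8 members had a PARP1 promoter peak, and 1 ligand-level and 3 receptor-level genes had a peak in either list. Without peaks of the smallest width, 3 receptor-level genes had a peak in either list, where 21.4% of all genes did. With all start sites in the RefSeq table, an alternative chosen after seeing the data, 5 ligand-level genes did, since PORCN and WNT2B were added, and TCF7 gained both peaks. Of all genes, 29.3% had a peak in either list in that setting. The destruction complex level stayed within 1.5 times of 5 genes, from 4 to 7, in all 8 alternatives, and at least 4 of its genes had both peaks in each. Members with both peaks numbered from 6 to 9 in the alternatives other than the gene record. These were 10.2% to 15.3% of members, where 8.99% to 14.6% of all genes had both. The depth of the libraries is unknown, and a peak absent from a list was not detectable at its threshold. No paired analysis was possible because there was 1 library for each antibody.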
